A study of Mus musculus with 12 samples.

Results

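The comparison described here sets all 9 mice that received a checkpoint-blocking antibody against the 3 mice that received isotype antibody, for every mouse gene with at least 30 reads summed over the 12 libraries. Of the 56691 mouse genes in the count table, 15138 met that rule and 41553 did not; 69 genes sat on the limit with exactly 30 reads and 74 sat just outside it with 29. Splenic CD4+ T cells came from Tg4 *Nr4a3*-Tocky *Il10*-GFP mice, whose T cells carry a transgenic receptor for a myelin basic protein peptide and report *Nr4a3* transcription through a Timer protein that changes from blue to red. The methods give both sexes, a typical age of 6 to 8 weeks and random assignment of littermates of the same sex. Each of the 12 mice was given [4Y]-MBP peptide under the skin (4 mg/kg), then 0.5 mg of antibody 24 h later and, 30 min after that, the peptide at 0.4 mg/kg, with the spleen removed 12 h later. The 3 isotype mice received a pool of rat IgG1 and rat IgG2a, 3 mice received anti-Lag3 (clone C9B7W), 3 received anti-PD-L1 (clone MIH5) and 3 received both antibodies pooled (CB). Blue+Red+ responder cells were sorted in batches of 4 spleens, and in the sort each condition carried its own fluorochrome on the CD4 antibody, so that effects of that stain cannot be told apart from those of the treatment. Each mouse gave 1 library, so n = 3 per group, 9 for antibody and 3 for isotype.

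PD-1 and Lag3 are inhibitory receptors that activated T cells place on their surface. PD-1 binds PD-L1 and Lag3 binds MHC class II, and both dampen signals from the T cell receptor (TCR), which reach the nucleus through NFAT, NF-kB and ERK. Stimulated CD4+ T cells build ribosomes, chaperones and nucleotides as they prepare to grow, and lose transcripts of naive cells such as the egress receptor gene *S1pr1*. Interferons act through their own receptors and STAT proteins and switch on a further programme of GTPases and antiviral genes, many of which carry paired GAAA letters in their promoters. MYC, a factor that drives growth genes, binds the letters CACGTG.

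Promoter letters are given here for the 4 called members of the interferon-stimulated gene list with a usable RefSeq promoter entry and for the ribosome assembly gene *Nop2*. These are the 2 gene groups that the results below turn on. Of the 11 called ribosome assembly genes with an entry, only *Nop2* held CACGTG in the bases shown, so that it does not stand for the others. Each line is the 250 bases before the RefSeq start (GRCm38.p6), 5′ to 3′ on the strand of the gene, with the paired GAAA motif (GAAA, any 2 bases, GAAA) or CACGTG in capitals wherever it occurs on either strand.
Igtp (chr11:58199306-58199555, plus strand): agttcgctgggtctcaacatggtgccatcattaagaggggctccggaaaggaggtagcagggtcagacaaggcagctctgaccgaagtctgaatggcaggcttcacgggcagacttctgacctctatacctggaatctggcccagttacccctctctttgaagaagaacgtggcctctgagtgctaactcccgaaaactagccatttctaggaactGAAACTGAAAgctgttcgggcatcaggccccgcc
Gbp5 (chr3:142496684-142496933, plus strand): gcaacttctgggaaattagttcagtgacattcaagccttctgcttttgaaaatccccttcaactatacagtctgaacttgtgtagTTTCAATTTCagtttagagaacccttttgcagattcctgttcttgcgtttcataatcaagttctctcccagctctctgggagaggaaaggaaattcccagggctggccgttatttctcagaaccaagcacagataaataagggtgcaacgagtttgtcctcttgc
Isg15 (chr4:156200819-156201068, minus strand): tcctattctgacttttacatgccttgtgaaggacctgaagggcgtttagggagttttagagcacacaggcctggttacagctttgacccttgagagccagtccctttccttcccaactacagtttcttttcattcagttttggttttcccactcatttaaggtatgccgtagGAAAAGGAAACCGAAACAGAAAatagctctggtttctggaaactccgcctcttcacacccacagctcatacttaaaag
Bst2 (chr8:71537473-71537722, minus strand): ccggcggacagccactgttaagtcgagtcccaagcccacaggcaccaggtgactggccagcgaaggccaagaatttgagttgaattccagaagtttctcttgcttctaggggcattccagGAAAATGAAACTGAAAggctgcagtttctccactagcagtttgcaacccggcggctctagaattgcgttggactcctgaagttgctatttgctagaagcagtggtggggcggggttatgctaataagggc
Nop2 (chr6:125131633-125131882, plus strand): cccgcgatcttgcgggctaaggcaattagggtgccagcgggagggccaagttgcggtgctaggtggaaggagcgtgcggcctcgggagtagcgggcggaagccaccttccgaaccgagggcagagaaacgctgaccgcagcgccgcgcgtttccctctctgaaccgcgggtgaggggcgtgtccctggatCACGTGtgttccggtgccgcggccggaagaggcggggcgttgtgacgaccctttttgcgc
The capitals begin 34 bases before the start in *Igtp*, 165 before it in *Gbp5* and 60 before it in *Nop2*. *Isg15* holds 3 overlapping matches that begin 78, 72 and 66 bases before the start, and *Bst2* holds 2 that begin 130 and 124 bases before it. Over windows of 300 bases, which add 50 bases after the start, the paired GAAA motif was present for 4 of 4 called members of the interferon-stimulated gene list, 21 of 34 tested ones (61.8%) and 3.24% of the 9883 tested genes with a window. It was not found in the 250 bases before the start of *Ifi47*, *Erap1* or *Lgals3bp*, called genes outside that list that interferon also induces. CACGTG was present for 4 of 11 called ribosome assembly genes (*Grwd1*, *Mybbp1a*, *Nop2* and *Wdr43*), 19.5% of the 41 tested ones with a window and 10.3% of all. In *Grwd1*, *Mybbp1a* and *Wdr43* these letters lie outside the 250 bases before the start. Among all called genes, the paired GAAA motif was found for 8.45% of those higher and 4.92% of those lower, and CACGTG for 18.3% and 11.5%. A match is a string of letters and not evidence of binding.

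Depth on genes ranged from 16449370 to 22151025 reads per library, spike-ins took 0.719% to 1.29% of reads, and a single gene took 14.3% to 21.9%. The labelled cell type was checked with CD4 T cell markers (*Cd4*, *Cd3e*, *Cd3d*, *Cd3g*, *Trac*, *Lck* and *Cd28*), which summed to 2603 to 2709 CPM (counts scaled to library size) in isotype and 2311 to 2739 in antibody libraries. The 3 CB libraries, at 2311 to 2392 CPM, lay below all others, the next lowest being anti-PD-L1 1 at 2502 CPM. The groups were not balanced for sex. Y-linked transcripts marked 2 of 3 isotype mice (isotype 1 and 2) as male, against 1 of 3 in each antibody group (the mouse numbered 1). The library isotype 2 also held 11.3 CPM of *Xist*, which was at 0.116 CPM or less in the other 4 male libraries and at 237 to 491 CPM in the female ones. The 6 erythroid markers together summed to 241 to 451 CPM in isotype and to 149.7 to 289 CPM in antibody libraries, and isotype 1 held the highest sum. None of them was at 0 in all libraries, and *Hbb-bs* and *Hbb-bt* (beta-globin chains) were themselves called lower. B cell markers summed to 363 to 423 CPM and 329 to 429.5 CPM, myeloid markers to 10.8 to 17.4 and 6.97 to 31.0, CD8 markers to 40.9 to 45.3 and 24.6 to 46.4, and NK markers to 21.2 to 36.0 and 11.7 to 35.2, in isotype and antibody libraries respectively. All CB libraries lay below all isotype sums for myeloid (6.97 to 10.2 CPM), CD8 (25.05 to 33.2 CPM) and NK markers (11.7 to 18.8 CPM). So did anti-Lag3 2 (7.92, 29.2 and 19.5 CPM). All anti-PD-L1 libraries lay below isotype for CD8 markers (24.6 to 30.5 CPM) but above it for myeloid markers (19.9 to 31.0 CPM). For NK markers, anti-Lag3 1 (20.45 CPM), anti-PD-L1 2 (16.4 CPM) and anti-PD-L1 3 (20.25 CPM) also lay below isotype. The part of the CD4 T cell, myeloid, CD8 and NK marker levels in the results was not tested. In sorted bulk cells, a lower share of a cell type and less RNA per cell of that type cannot be told apart.

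Averaged over the 3 antibody groups, 12 of 46 ribosome assembly genes, 4 of 18 heat shock chaperone genes and 5 of 48 interferon-stimulated genes were called higher. In these lists 0 members were called lower, although 15 of the 48 interferon-stimulated genes had a log2 fold change below 0. Among the genes called lower were the egress receptor *S1pr1*, the guanine exchange factor *Rasgrp2*, the TCR signalling adaptor *Themis* and the MYC antagonist *Mxd4*. The contrast gave each antibody group equal weight (mean of CB, anti-PD-L1 and anti-Lag3 minus isotype, quasi-likelihood test of edgeR, Benjamini-Hochberg adjusted p under 0.05). It called 175 genes, 1.16% of those tested, with 94 higher (0.621%) and 81 lower (0.535%), and 1924 genes had an unadjusted p under 0.05. The called genes were mostly protein-coding (90 of the 94 and 81 of the 81), and 93 and 79 of them had a mean count of at least 30. The typical size was modest, with a median log2 fold change of 0.57 among the higher and -0.53 among the lower genes, against -0.02 over all genes. All 9 antibody libraries lay above all 3 isotype libraries for 166 genes (1.1% of those tested) and below them for 187 (1.24%), 2.33% in all. Among the called genes, 63 of the 94 higher and 39 of the 81 lower showed this full separation. The genes named by size, p, evenness or gradation had to show it, so that for them the separation is part of the choice.

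The count of calls depended on the design and on few isotype mice. When the 9 antibody libraries were fitted as 1 group against isotype, 0 genes were called by edgeR, with 1525 at an unadjusted p under 0.05 and 123 called by DESeq2. Without isotype 1 it was 12 higher and 17 lower, without isotype 2 it was 33 and 16, without isotype 3 it was 60 and 49, and without CB 3 it was 56 and 56. Every one of the called genes that could be fitted kept its direction when any 1 library was left out, and 17 of the 175 kept an adjusted p under 0.05 in all 12 such fits. These 17 were *Ccr6*, *Dapl1*, *Dkc1*, *Hsp90aa1*, *Hspe1*, *Igtp*, *Ms4a4b*, *Mxd4*, *Nolc1*, *Pfn1*, *Pim2*, *Ppa1*, *Rasgrp2*, *S100a10*, *S1pr1*, *Snhg1* and *Vim*. Sex and erythroid level were taken up after seeing the data. With sex as a covariate the fit called 244 genes, including 166 of the 175. Within male mice alone (3 antibody against 2 isotype) 0 genes were called by edgeR, 1037 had an unadjusted p under 0.05, DESeq2 called 71, and 175 of 175 genes kept their direction. Within female mice (6 against 1) edgeR called 0, 670 had an unadjusted p under 0.05, DESeq2 called 2, and 174 of 174 kept their direction. With 1 isotype mouse the female comparison has no spread of its own in that group, and since the genes were called on these same libraries, kept directions within either sex or without 1 library were largely set by that choice. The difference of the antibody effect between males and females reached an adjusted p under 0.05 for 0 of 15138 genes in edgeR's test. With the summed erythroid markers as a covariate, 13 genes were called, all among the 175, and 174 of 175 kept their direction.

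The plot of calls by setting shows these counts beside those of the other alternatives.

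**Figure D1:**
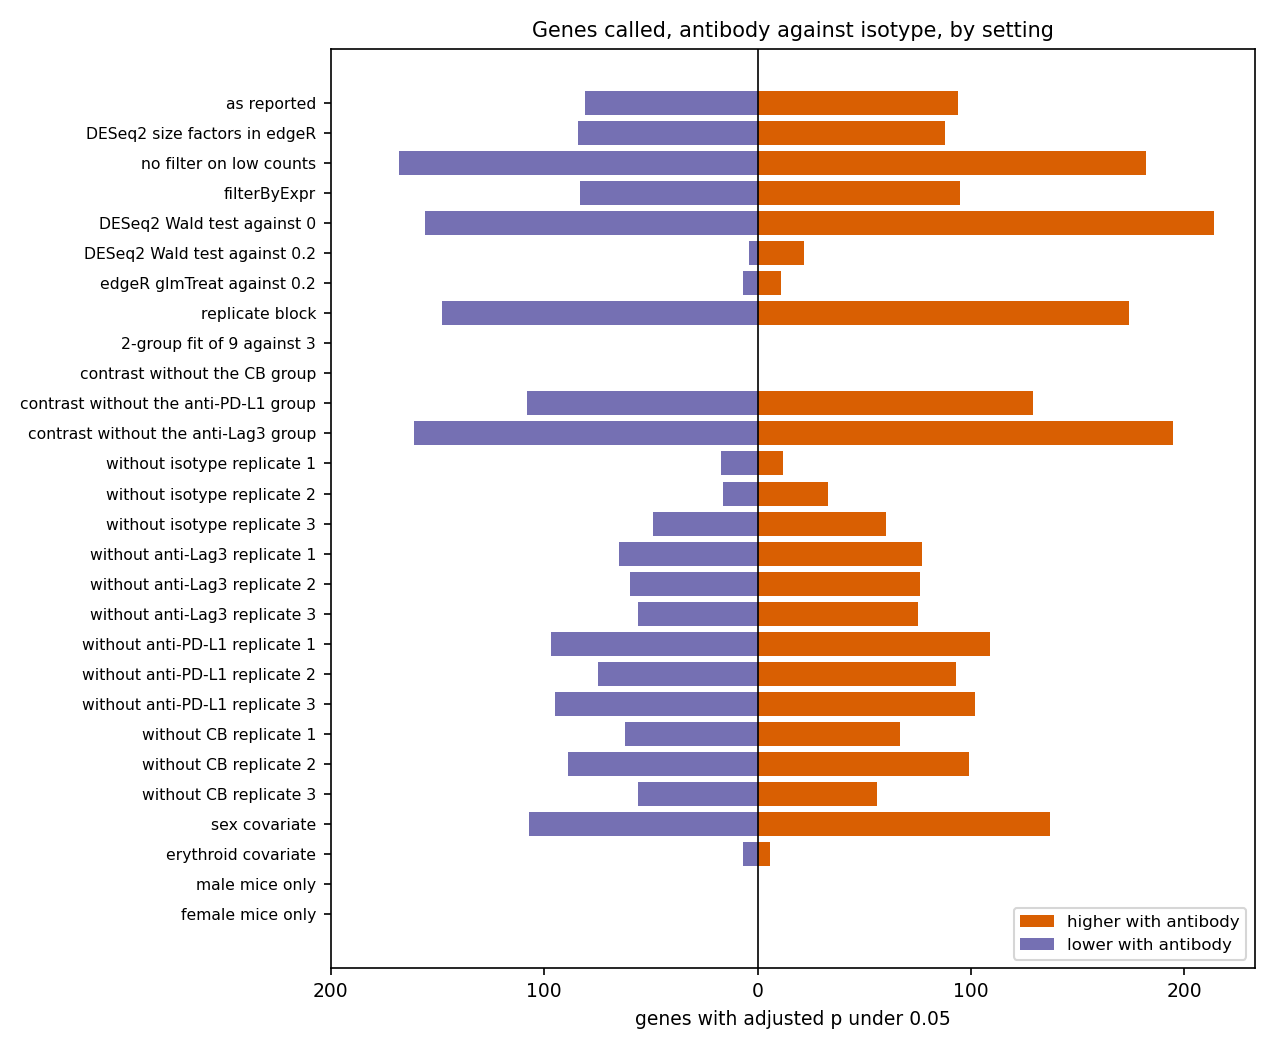
Number of genes with an adjusted p under 0.05 (x axis) higher (orange, right) or lower (purple, left) with antibody than with isotype, for the reported fit and each alternative setting (y axis). The reported fit gives 94 and 81 genes, DESeq2 214 and 156, and 4 settings give 0 in both directions.

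The called genes differed in how evenly the 3 antibody groups contributed. Among the 94 higher genes the median log2 fold change against isotype was 0.38 in the anti-Lag3 group, 0.46 in the anti-PD-L1 group and 0.82 in the CB group. Among the 81 lower genes it was -0.31, -0.38 and -0.89. These 3 values share the isotype libraries and are given side by side only. A comparison of means without isotype, CB minus the mean of the groups with a single antibody, called 170 genes, 1.12% of those tested. Of these, 92 were higher (0.608%) and 78 lower (0.515%, same test). The isotype libraries still entered its scaling and residual spread, which it shared with the averaged contrast. This comparison also called 36 of the 94 higher genes (38.3%) as higher in CB and 0 as lower. Of the 81 lower genes it called 36 (44.4%) as lower and 0 as higher. Without regard to the test, 92 of the 94 and 77 of the 81 went the same way in this step, where 51% of all genes lay above 0. The comparison of anti-PD-L1 with anti-Lag3 called 0 genes in edgeR, with 710 at an unadjusted p under 0.05 and 10 called by DESeq2. The anti-PD-L1 mean was the higher one for 69 of the 94 higher genes (73.4%, against 48.4% of all genes) and for 26 of the 81 lower genes (32.1%). A test that the 3 antibody means are equal called 77 genes (0.509%), of which 24 were among the higher and 23 among the lower genes.

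CB weighed heavily on the calls, and its libraries are those with the lowest CD4 T cell marker sums. The mean of both groups with a single antibody against isotype called 0 genes in edgeR, with 1238 at an unadjusted p under 0.05, a smallest adjusted p of 0.0527 and 39 genes called by DESeq2. In that same contrast the 94 higher and 81 lower genes had median log2 fold changes of 0.41 and -0.37, a description only, since they were called on the same isotype and single-antibody libraries. Taken one by one, anti-Lag3 against isotype called 0 genes (788 at an unadjusted p under 0.05, 10 by DESeq2) and CB against isotype called 649 (4.29%, with 2.33% of genes higher and 1.96% lower). Anti-PD-L1 against isotype called 5 genes (0.033%), which were *Ccr6*, *Mt2*, *Ly6a*, *Ppa1* and *Mt1*, all higher, with 1187 genes at an unadjusted p under 0.05 and 56 called by DESeq2.

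The plot of the averaged effect against the step from single antibodies to CB shows that most called genes had the same sign on both axes.

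**Figure D2:**
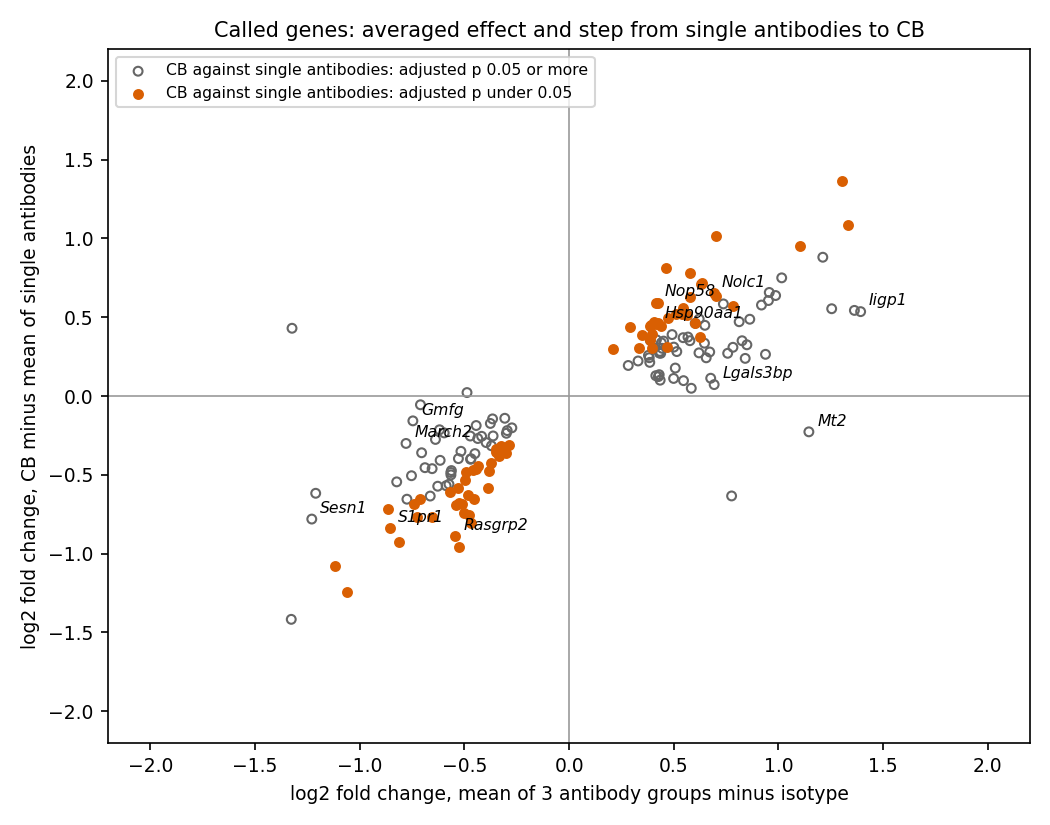
Each point is a called gene, placed by its log2 fold change in the mean of the 3 antibody groups minus isotype (x axis) and in CB minus the mean of the single antibodies (y axis). Filled points passed the test on the y axis. Of the 175 genes 171 are within the axes, and Rasgrp2 and Nolc1 lie far from 0 on the y axis while Lgals3bp and Mt2 lie at 0.07 and -0.23. Rasgrp2 and Nolc1 were named for this step and Lgals3bp for evenness, so that their places largely follow from the choice.

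Among genes of the interferon response, a few rose in the averaged contrast, and the list had a median above 0 in each antibody group. Of 48 tested interferon-stimulated genes, 5 were called higher (*Iigp1*, *Gbp5*, *Isg15*, *Igtp* and *Bst2*) and 0 lower, beside 0.621% and 0.535% of all genes. The median log2 fold change of the list was 0.27, and 33 of the 48 members lay above 0. By group the list's median was 0.25 for anti-Lag3, 0.23 for anti-PD-L1 and 0.31 for CB, and the median step from the single antibodies to CB was 0.02. That step called 1 member higher (*Gbp5*, adjusted p = 0.0487, edgeR) and 1 lower (*Ifi203*, -0.43, adjusted p = 0.0499, edgeR). The step call of *Gbp5* held in 2 of the 12 fits that left out 1 library. It was also lost with the size factors of DESeq2 and with the erythroid covariate. As a median over the list relative to the isotype mean, the isotype libraries lay between -0.03 and 0.10 on the log2 scale and the 9 antibody libraries between 0.15 and 0.59. The lowest antibody values were those of the male libraries anti-PD-L1 1 (0.15), CB 1 (0.15) and anti-Lag3 1 (0.22). The female antibody libraries lay between 0.30 (CB 2) and 0.59 (CB 3). Among isotype libraries the female isotype 3 (0.10) lay above the male isotype 1 (0.01) and isotype 2 (-0.03). Sex was not balanced between isotype and antibody mice, and its part in the rise of this list was not tested.

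*Igtp* (chromosome 11 from 58199556 to 58207591 of GRCm38, plus strand), which encodes an immunity-related GTPase, was at 63.6, 61.8 and 59.8 CPM in the isotype libraries. It was at 90.5, 104.5 and 104.7 CPM with anti-Lag3, at 95.6, 88.8 and 104.1 with anti-PD-L1 and at 124.0, 94.2 and 136.8 with CB. The isotype values formed a tight group below all 9 antibody values, and the 3 antibody groups overlapped with each other. The averaged log2 fold change was 0.76 (standard error 0.12, adjusted p = 0.00153, edgeR), and the call was kept whichever library was left out (0.72 to 0.80). Reads of *Igtp* overlap those of *Irgm2* on the same strand, and *Iigp1* and *Gbp5* belong to families of close copies, so that their counts are uncertain to that extent. *Iigp1*, a second GTPase of this family, had the largest rise among the genes named for size, which had full separation and a mean count of at least 30, at 1.39 (standard error 0.27, adjusted p = 0.008). It was at 8.4, 5.64 and 11.8 CPM with isotype and between 13.3 and 36.2 CPM (median 22.7) with antibody, without overlap. Its call was lost without isotype 1 or isotype 2, and its log2 fold change was between 1.17 and 1.68 over all fits that left out 1 library.

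*Gbp5*, a guanylate-binding protein of inflammasome defence, was at 7.76 ± 1.13 CPM (mean ± SD, n = 3 mice) with isotype, 15.0 ± 2.89 with anti-Lag3, 11.9 ± 1.19 with anti-PD-L1 and 25.9 ± 2.32 with CB. Its averaged log2 fold change was 1.10 (standard error 0.25, adjusted p = 0.0271). *Isg15*, a ubiquitin-like modifier, rose by 0.92 (standard error 0.17, adjusted p = 0.00544), from 80.4 ± 9.59 CPM to 140.3 ± 30.2, 126 ± 38.0 and 199 ± 62.9 in the same order. Here the lowest antibody library (84.1 CPM, anti-PD-L1 1) lay below the highest isotype library (91.0 CPM, isotype 3). *Bst2*, the virus-tethering membrane protein, rose by 0.74 (standard error 0.18, adjusted p = 0.0349), and its lowest antibody value of 37.7 CPM lay just under the highest isotype value of 37.8. Members that did not pass the test included *Gbp2* at 0.92 (adjusted p = 0.0516) and *Ifit1* at 0.93 (adjusted p = 0.0857).

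The next 4 called genes, with further interferon-inducible members among them, were named because their antibody means differed least, so that their evenness is a description and not a result. *Lgals3bp*, a secreted glycoprotein that binds galectin-3, was at 48.2, 51.9 and 68.3 CPM with isotype, 86.5, 86.9 and 102 with anti-Lag3, 70.8, 86.7 and 102 with anti-PD-L1, and 94.4, 97.4 and 89.8 with CB. All antibody libraries lay above the isotype ones, and the averaged log2 fold change was 0.69 (standard error 0.13, adjusted p = 0.00626). *Erap1*, which trims peptides for MHC class I, went from 39.6 ± 4.75 CPM to 57.9 ± 6.28, 55.0 ± 3.23 and 60.4 ± 1.81 (0.55, standard error 0.13, adjusted p = 0.0378). *Ifi47*, another interferon-inducible GTPase, went from 101 ± 24.0 CPM to 135 ± 5.07, 140.5 ± 9.37 and 156 ± 22.1 (0.51, standard error 0.12, adjusted p = 0.0339). *Wdr55*, a nucleolar WD-repeat protein, went from 35.1 ± 1.76 CPM to 49.5 ± 4.80, 54.7 ± 3.53 and 53.8 ± 5.02 (0.58, standard error 0.14, adjusted p = 0.033). Reads of *Erap1* overlap those of *Cast* on the opposite strand, and the strand setting of the counting is not given in the sources used here. The calls of *Erap1*, *Ifi47*, *Wdr55* and *Lgals3bp* held in 3, 7, 5 and 10 of the 12 fits that left out 1 library, and isotype 1 was among those each of them needed.

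*Mt2* and *Mt1* encode metallothioneins, which bind zinc and copper. *Mt2* was at 21.1, 15.5 and 39.6 CPM with isotype, 52.6, 46.7 and 46.6 with anti-Lag3, 70.6, 74.5 and 71.8 with anti-PD-L1, and 40.3, 54.8 and 56.8 with CB. The anti-PD-L1 libraries were the highest, and CB 1 lay only just above isotype 3. The averaged log2 fold change was 1.15 (standard error 0.20, adjusted p = 0.00401), and the step from the single antibodies to CB was -0.23 (standard error 0.20, adjusted p = 0.768). *Mt1* rose by 0.78 (adjusted p = 0.0275) with group means of 42.0, 75.8, 91.7 and 53.7 CPM for isotype, anti-Lag3, anti-PD-L1 and CB, and its antibody and isotype libraries overlapped.

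**Figure D3:**
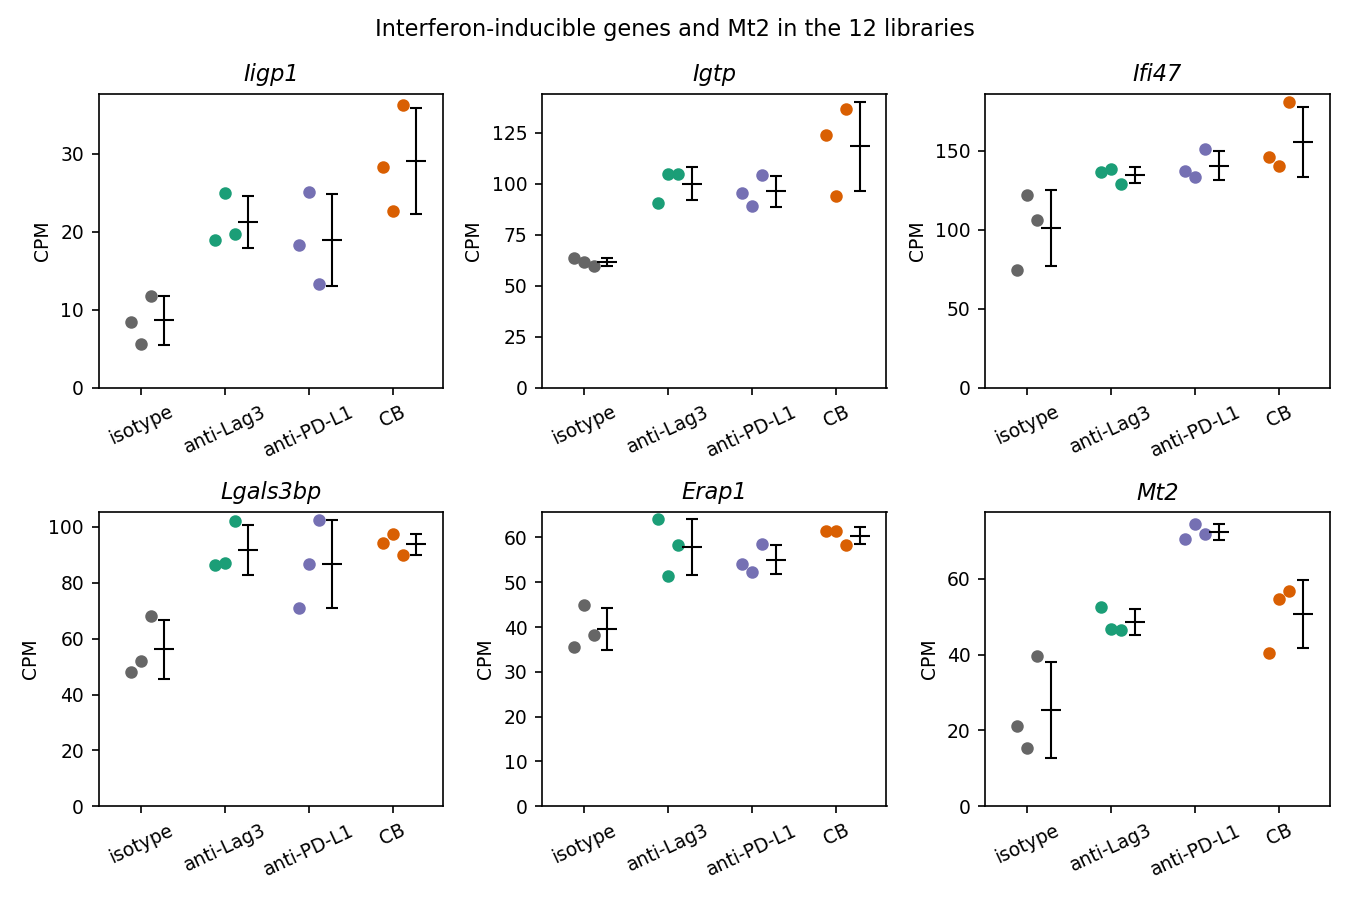
CPM (y axes, linear from 0) of Iigp1, Igtp, Ifi47, Lgals3bp, Erap1 and Mt2 in each library by group (x axes); points are mice and the black bars are the mean ± SD of 3. For each gene all 9 antibody points lie above the 3 isotype points, for Igtp with isotype at 59.8 to 63.6 and antibody at 88.8 to 137 CPM. All but Igtp were named under a rule that required this separation, so that for them it follows from the choice. The called interferon-stimulated genes Isg15 and Bst2, which overlapped isotype, are not shown.

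By count, ribosome assembly had the most called members of the lists examined, and its median was highest in CB. The lists differed in size and were chosen with earlier results of these data known, so that this rank is a description. A larger share was called in a smaller list, 3 of 7 MS4A genes and *Cd52*. Ribosome assembly genes act in the nucleolus to process ribosomal RNA and assemble subunits. Of the 46 tested, 12 were called higher and 0 lower, beside 0.621% of all genes called higher. All 46 of 46 had a log2 fold change above 0. The list's median was 0.40, made up of 0.18 for anti-Lag3, 0.29 for anti-PD-L1 and 0.69 for CB. The step from the single antibodies to CB had a median of 0.45 and called 13 members. Per library the median of the list relative to the isotype mean was between -0.04 and 0.05 with isotype, 0.08 and 0.33 with anti-Lag3, 0.21 and 0.41 with anti-PD-L1, and 0.56 and 0.79 with CB. Of 83 cytosolic ribosomal protein genes 0 were called in either direction, near the 1.16% of all genes, and their median was 0.02; the difference between these lists was not tested.

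*Nolc1* (chromosome 19 from 46075863 to 46085530, plus strand), a nucleolar phosphoprotein, was at 93.3, 131 and 117 CPM with isotype, 160.2, 153 and 149.6 with anti-Lag3, 174, 154 and 158 with anti-PD-L1, and 264, 237 and 245 with CB. The groups with a single antibody lay close together above isotype and the CB libraries stood apart above both. Its averaged log2 fold change was 0.69 (standard error 0.10, adjusted p = 8.77e-04) and its step to CB was 0.65 (standard error 0.10, adjusted p = 8.18e-04, edgeR). *Nop58*, a core protein of the particles that guide RNA methylation, was at 391 ± 12.9 CPM with isotype, 432 ± 21.6 with anti-Lag3, 480.3 ± 34.3 with anti-PD-L1 and 687 ± 31.6 with CB. *Dkc1*, the pseudouridine synthase dyskerin, was at 312 ± 14.3, 341 ± 20.8, 393 ± 32.4 and 549.8 ± 25.1 CPM. *Nolc1*, *Nop58*, *Dkc1* and the chaperone *Hsp90aa1* were named for the smallest p-values of the step, so that their steps are a description. Reads of *Dkc1* overlap *Mpp1* on the opposite strand.

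The largest averaged rises in the group were those of *Grwd1*, a histone and ribosome assembly chaperone, at 0.95 (standard error 0.17, adjusted p = 0.00401), and *Bysl*, needed for the small subunit, at 0.94 (standard error 0.17, adjusted p = 0.00485). *Grwd1* went from 21.01 ± 1.84 CPM with isotype to 30.7 ± 1.40, 40.6 ± 1.48 and 53.8 ± 10.4 with anti-Lag3, anti-PD-L1 and CB. *Gnl3*, which encodes nucleostemin, and *Wdr43*, part of the small subunit processome, leaned most on CB, with steps of 1.02 and 0.81 (adjusted p = 2.74e-04 and 2.87e-05). *Gnl3* was at 47.2 ± 9.05 CPM with isotype, 58.3 ± 2.35 and 63.4 ± 15.5 with the single antibodies and 123 ± 13.2 with CB. The other called members were *Bop1*, *Rrp1b*, *Nop2*, *Mybbp1a* and *Ncl*, at 0.34 to 0.65. Without isotype 1 the calls of *Grwd1*, *Bysl*, *Gnl3*, *Wdr43*, *Bop1*, *Rrp1b*, *Nop2*, *Ncl* and *Nop58* were lost, with *Grwd1* between 0.88 and 1.01 over all fits that left out 1 library. Reads of *Bysl*, *Gnl3* and *Bop1* overlap genes on the opposite strand.

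Some genes that serve protein production and folding also rose. Of 18 heat shock chaperone genes 4 were called higher and 0 lower, beside 0.621% and 0.535% of all genes, with a median of 0.30 (0.13, 0.22 and 0.47 for anti-Lag3, anti-PD-L1 and CB) and 18 of 18 above 0. *Hsp90aa1*, the inducible HSP90, was at 1492, 1725 and 1537 CPM with isotype, 1809, 1798 and 2001 with anti-Lag3, 1949, 1786 and 2071 with anti-PD-L1, and 2587, 2623 and 2619 with CB. The CB libraries lay close together and above all others, and the averaged log2 fold change was 0.42 (standard error 0.06, adjusted p = 7.24e-04). *Hspe1*, the mitochondrial chaperonin HSP10, rose by 0.47 (standard error 0.07, adjusted p = 0.0014), from 359 ± 15.2 CPM to 463 ± 25.5, 459.8 ± 29.1 and 574 ± 14.1. Reads of *Hspe1* overlap those of *Hspd1* on the opposite strand. *Hspa5*, the chaperone BiP of the endoplasmic reticulum, rose by 0.40 (adjusted p = 0.00676) and *Hsp90ab1* by 0.21 (adjusted p = 0.0197). *Ppa1*, the pyrophosphatase that clears a by-product of RNA and protein synthesis, was at 159.9, 166 and 173 CPM with isotype and between 216 and 319.6 with antibody, a rise in log2 level of 0.62 (standard error 0.09, adjusted p = 7.12e-04).

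Translation initiation factors had 4 of 25 called higher (*Eif3j1*, *Eif3g*, *Eif2s2* and *Eif5b*) with a median of 0.17, aminoacyl-tRNA synthetases 3 of 19 (*Cars*, *Yars* and *Farsa*) with 0.22, and proteasome subunits 3 of 34 (*Psmd7*, *Psma3* and *Psma4*) with 0.11, and 0 members of these lists were lower, beside 0.621% of all genes higher and 0.535% lower. *Cars*, the cysteine enzyme, had the largest of these rises, 0.86 (standard error 0.20, adjusted p = 0.0264). The calls of *Psma3* and *Psma4* held in 3 and 2 of the 12 fits that left out 1 library, and that of *Psmd7* in 10. *Timm10*, which carries proteins across the mitochondrial intermembrane space, rose by 0.96 (standard error 0.20, adjusted p = 0.0123), with 15.0, 15.1 and 11.9 CPM in isotype libraries and 19.6 to 42.1 CPM (median 26.4) in antibody libraries. Others named for the size of their rise, under the same limits, were *Gm14005*, a long non-coding RNA gene (1.25, adjusted p = 0.0248), *Gstt3*, a glutathione transferase (1.21, adjusted p = 0.0268), and *Cnn3*, an actin-binding calponin (0.99, adjusted p = 0.0457). All 3 were low, at 6.44, 6.63 and 12.1 CPM on average with isotype, and their calls held in 9, 8 and 4 of the 12 fits that left out 1 library. Glycolysis and hypoxia genes (22 tested, median 0.15), amino acid transporters (10, median 0.28) and cholesterol synthesis genes (19, median 0.21) had 0 members called. That is near the 1.16% called among all genes, and nothing is read from it about these lists.

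**Figure D4:**
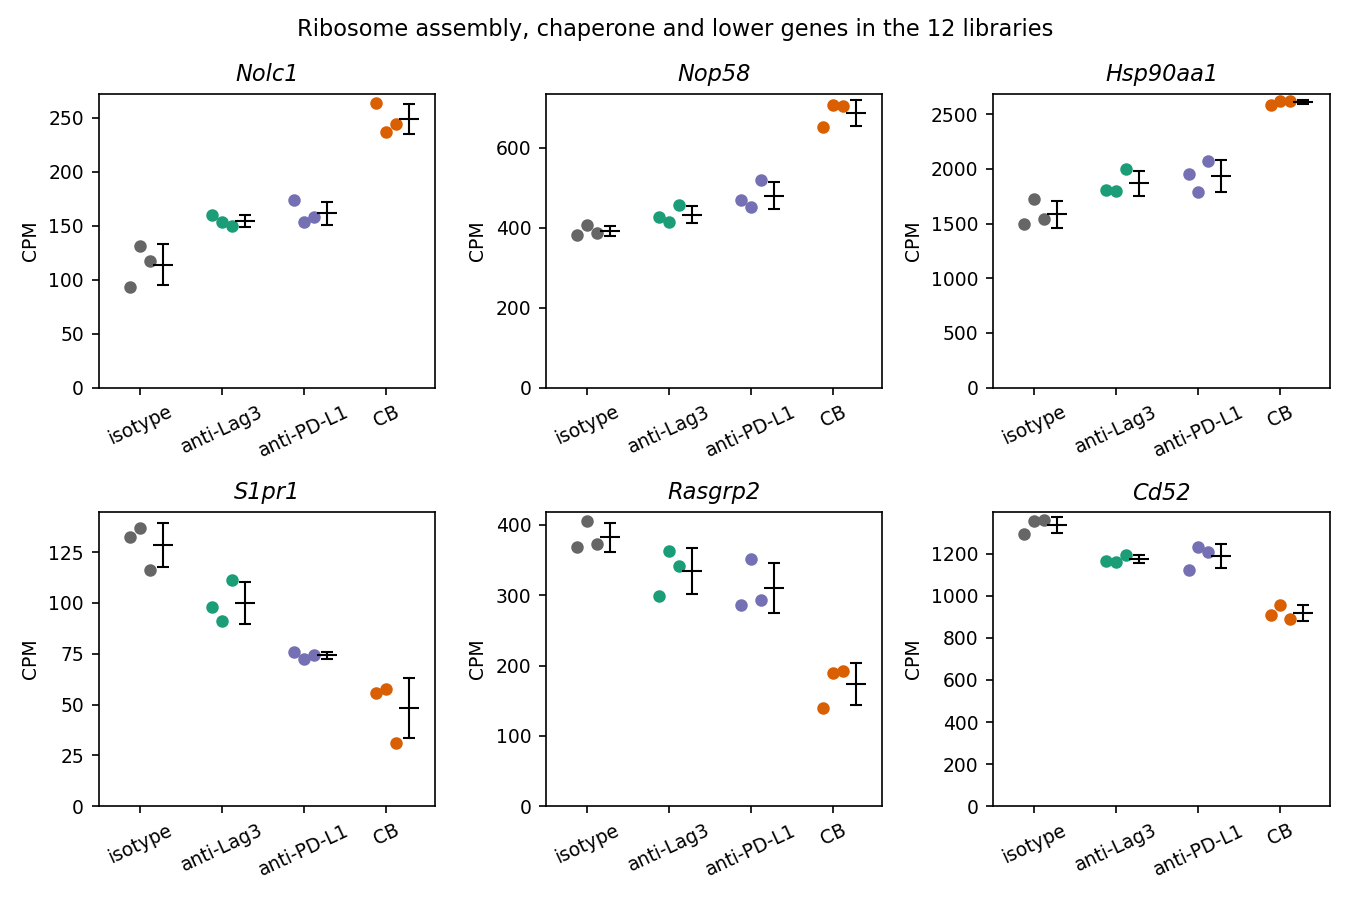
CPM (y axes, linear from 0) of Nolc1, Nop58, Hsp90aa1, S1pr1, Rasgrp2 and Cd52 in each library by group (x axes); points are mice and the black bars are the mean ± SD of 3. The means of the single-antibody groups lie between isotype and CB for all 6 genes, for Nop58 at 432 and 480.3 CPM between 391 and 687. The 6 genes were named for the step to CB and for full separation from isotype, so that this order largely follows from the choice.

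Of the 10 genes that the study named for strong TCR signalling or NFAT dependence, 3 were called higher (0.621% of all genes) and 10 of 10 lay above 0, with a median of 0.48 (0.30 for anti-Lag3, 0.27 for anti-PD-L1 and 0.85 for CB). The study chose these names on the same libraries, so that the count is not independent evidence of a direction. *Irf8*, a transcription factor, was at 62.5, 72.2 and 60.0 CPM with isotype, 88.1, 85.2 and 68.4 with anti-Lag3, 89.2, 95.3 and 86.9 with anti-PD-L1, and 172, 104 and 145 with CB (0.63, standard error 0.13, adjusted p = 0.0138). Only the library anti-Lag3 3 reached into the isotype range. *Tnfrsf4*, the costimulatory receptor OX40, rose by 0.62 (standard error 0.13, adjusted p = 0.0115) and *Icos*, another costimulator, by 0.39 (standard error 0.08, adjusted p = 0.0192). *Il21* at 1.39 (adjusted p = 0.0519), *Tnfrsf9* at 0.55 (adjusted p = 0.078), *Maf* at 0.40 (adjusted p = 0.0899), *Il2ra* at 0.54 (adjusted p = 0.308) and *Irf4* at 0.43 (adjusted p = 0.211) did not pass the test. The calls of *Irf8*, *Tnfrsf4* and *Icos* were lost without isotype 1.

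The targets of the antibodies and the genes behind the sort did not pass the test. *Pdcd1*, which encodes PD-1, was at 20.1, 27.4 and 19.1 CPM with isotype and 15.0 to 30.1 CPM with antibody (0.21, standard error 0.21, adjusted p = 0.775). *Lag3* was at 6.79, 6.27 and 4.24 CPM and at 0.987 to 11.01 CPM (0.20, standard error 0.45, adjusted p = 0.953). *Cd274*, which encodes PD-L1, was at 17.8, 5.57 and 18.0 CPM and at 2.92 to 12.2 CPM (-0.92, standard error 0.38, adjusted p = 0.299). *Nr4a3*, whose activity defined the sorted cells, was at 29.4, 31.9 and 33.1 CPM and at 8.48 to 31.8 CPM (-0.46, standard error 0.26, adjusted p = 0.477). *Il10* had a log2 fold change of 0.60 (adjusted p = 0.552) and *Cd4* of -0.35 (standard error 0.09, adjusted p = 0.0657). The result for *Cd4* depended on the fit: it passed in 7 of 25 alternative settings, among them DESeq2, no filter on low counts and 2 of the 12 fits that left out 1 library. For each of these 6 genes the isotype and antibody libraries overlapped.

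A few receptors and integrins that place T cells in tissues changed, in both directions. Of 20 migration and homing genes 1 was called higher and 3 lower, beside 0.621% and 0.535% of all genes, with a median of -0.24 and 17 of 20 below 0. *S1pr1* (chromosome 3 from 115710433 to 115715072, minus strand), the receptor that guides T cells out of lymphoid tissue, was at 133, 137 and 116 CPM with isotype, 97.9, 91.0 and 111 with anti-Lag3, 76.1, 72.5 and 74.2 with anti-PD-L1, and 55.9, 57.6 and 31.3 with CB. The 4 groups did not overlap with each other and lay lower in that order. The averaged log2 fold change was -0.86 (standard error 0.13, adjusted p = 0.00113) and the step to CB -0.84 (standard error 0.15, adjusted p = 0.00352). Both calls held in every fit that left out 1 library. *S1pr1* was among the genes named for the smallest p-values of the step, so that its step and the stability of that step are a description. *Itga4* and *Itga6*, integrin alpha chains, fell by 0.56 (adjusted p = 0.0236) and by 0.48 (adjusted p = 0.0336) on the log2 scale. *Ccr6*, the receptor for the chemokine CCL20, rose by 2.62 (standard error 0.40, adjusted p = 0.00113). It was at 1.01, 2.22 and 5.45 CPM with isotype, 6.78, 9.999 and 3.10 with anti-Lag3, 18.5, 26.8 and 26.5 with anti-PD-L1, and 30.3, 39.1 and 37.8 with CB. Anti-Lag3 3 overlapped with isotype, while the groups with anti-PD-L1 lay clear of it.

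Single signalling and quiescence genes were among the lower genes. Of 26 genes of the TCR complex and its proximal signalling 0 were called higher and 2 lower (all genes 0.621% and 0.535%), and 23 of the 26 lay below 0 (median -0.17). *Rasgrp2*, which activates the adhesion switch Rap1, was at 368, 405 and 373 CPM with isotype, 298, 362 and 342 with anti-Lag3, 286, 351 and 294 with anti-PD-L1, and 139, 189.6 and 193 with CB. The single-antibody libraries sat just below isotype and the CB libraries far below both, for an averaged value of -0.54 (standard error 0.09, adjusted p = 0.00394). *Rasgrp2* was among the genes named for the smallest p-values of the step to CB, so that its gap to CB is a description. *Themis*, a T cell signalling protein of thymocyte selection, went from 131 ± 22.5 CPM to 92.0 ± 15.3, 82.9 ± 19.4 and 61.5 ± 6.31 (-0.75, standard error 0.13, adjusted p = 0.00394), a call lost without isotype 1. *Mxd4*, which competes with MYC for its partner MAX, was at 81.5, 78.1 and 83.2 CPM with isotype and 28.6 to 67.8 CPM (median 40.7) with antibody (-0.86, standard error 0.15, adjusted p = 0.00401). *Sesn1*, a sestrin that restrains mTORC1, had the most negative value among the genes named for size under the same limits, -1.23 (standard error 0.28, adjusted p = 0.028). It was at 25.2, 38.6 and 32.3 CPM with isotype and 5.29 to 24.9 CPM (median 12.96) with antibody, with the closest libraries nearly touching, and its call was lost without any 1 isotype library or anti-Lag3 2.

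In each of 4 other regulator lists 1 member fell, where 0.535% of all genes were called lower, and nothing is read from these counts about the lists. *Lef1*, a factor of naive T cells, was called among 21 quiescence factors (-0.47, adjusted p = 0.0275), *Dgka*, which removes the second messenger diacylglycerol, among 34 negative regulators of TCR signalling (-0.37, adjusted p = 0.0326), *Nfkb1* among 15 NF-kB genes (-0.62, adjusted p = 0.0196) and *Gata3*, the T helper 2 factor, among 21 lineage factors (-0.57, adjusted p = 0.0258). *Irf8* was the other called lineage factor. *Ly6a*, the surface antigen Sca-1, rose by 0.43 (standard error 0.08, adjusted p = 0.00394), with all 9 antibody libraries (556 to 792 CPM) above the isotype ones (449.7 to 488 CPM).

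Some S100, annexin and vimentin genes and some MS4A genes fell, as did *Cd52* and *Add3*. The list of S100, annexin and vimentin genes had 4 of 17 called lower (*S100a10*, *Vim*, *Anxa2* and *Anxa6*) and 0 higher, beside 0.535% and 0.621% of all genes, with medians of -0.20 for anti-Lag3, -0.01 for anti-PD-L1 and -0.85 for CB. *S100a10*, the partner of annexin A2, went from 294 ± 48.5 CPM with isotype to 241 ± 20.8, 207 ± 18.3 and 131 ± 6.94 (-0.65, standard error 0.09, adjusted p = 7.12e-04). Of 7 tested MS4A genes and *Cd52*, 3 were lower (*Ms4a4b*, *Ms4a6b* and *Cd52*), against the same 0.535%. *Cd52*, a small glycoprotein of lymphocytes, was at 1294, 1353 and 1362 CPM with isotype, 1165, 1158 and 1195 with anti-Lag3, 1123, 1233 and 1207 with anti-PD-L1 and 908, 958 and 888 with CB, a value of -0.30 (standard error 0.06, adjusted p = 0.00626). *Add3*, an adducin of the membrane skeleton, went from 192 ± 18.7 CPM to 159 ± 8.33, 149 ± 8.15 and 106 ± 9.30 (-0.50, standard error 0.09, adjusted p = 0.00517). The calls of *Cd52* and *Add3* were lost without isotype 2 only. Both were named for the smallest p-values of the step to CB, so that their low levels in CB are a description.

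The lower genes named for the smallest spread among the antibody means, which is again a description, were *March2*, an E3 ubiquitin ligase, *Gmfg*, an actin regulator of blood cells, *Selenop*, a selenium carrier, and *Ilk*, a kinase of integrin complexes. *Gmfg* was at 54.7, 55.9 and 56.8 CPM with isotype, 24.7, 33.3 and 36.7 with anti-Lag3, 34.4, 33.2 and 45.5 with anti-PD-L1, and 23.2, 33.2 and 36.3 with CB. The isotype libraries were tight and above all others, and the antibody groups overlapped (-0.75, standard error 0.16, adjusted p = 0.0197). *Selenop* fell by 0.62 (standard error 0.13, adjusted p = 0.0174), *March2* by 0.78 (standard error 0.19, adjusted p = 0.0429) and *Ilk* by 0.53 (standard error 0.13, adjusted p = 0.0378) on the log2 scale. Each of these 4 calls was lost when any 1 isotype library was left out, and reads of *March2*, *Gmfg* and *Ilk* overlap those of neighbouring genes. *Ctps2*, a CTP synthase (-0.82, adjusted p = 0.0488), and *Cmtm7*, a membrane protein (-0.81, adjusted p = 0.0344), complete the genes named for the most negative values under the same limits, and their calls held in 2 and 4 of the 12 fits that left out 1 library.

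Among cell cycle lists, 3 of 25 mitosis genes were lower (*Mki67*, *Top2a* and *Nusap1*, between -0.30 and -0.47), beside 0.535% of all genes. In the mitosis list 24 of 25 lay below 0 with a median of -0.18. Of 30 S phase genes 0 were called (median -0.01), near the 1.16% of all genes. The difference between these lists was not tested. Relative to the isotype mean, the mitosis median of the male libraries anti-PD-L1 1 (-0.02) and anti-Lag3 1 (-0.07) lay above that of the female isotype 3 (-0.08). The remaining antibody libraries lay between -0.16 (anti-PD-L1 2) and -0.35 (CB 2), and the part of sex in this list was not tested. *Mki67*, the proliferation antigen, was at 443, 404 and 354 CPM with isotype and between 233 and 374 CPM with antibody, so that the groups overlapped. Its log2 fold change was -0.40 (standard error 0.09, adjusted p = 0.0205). The plot of list medians places these groups side by side.

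**Figure D5:**
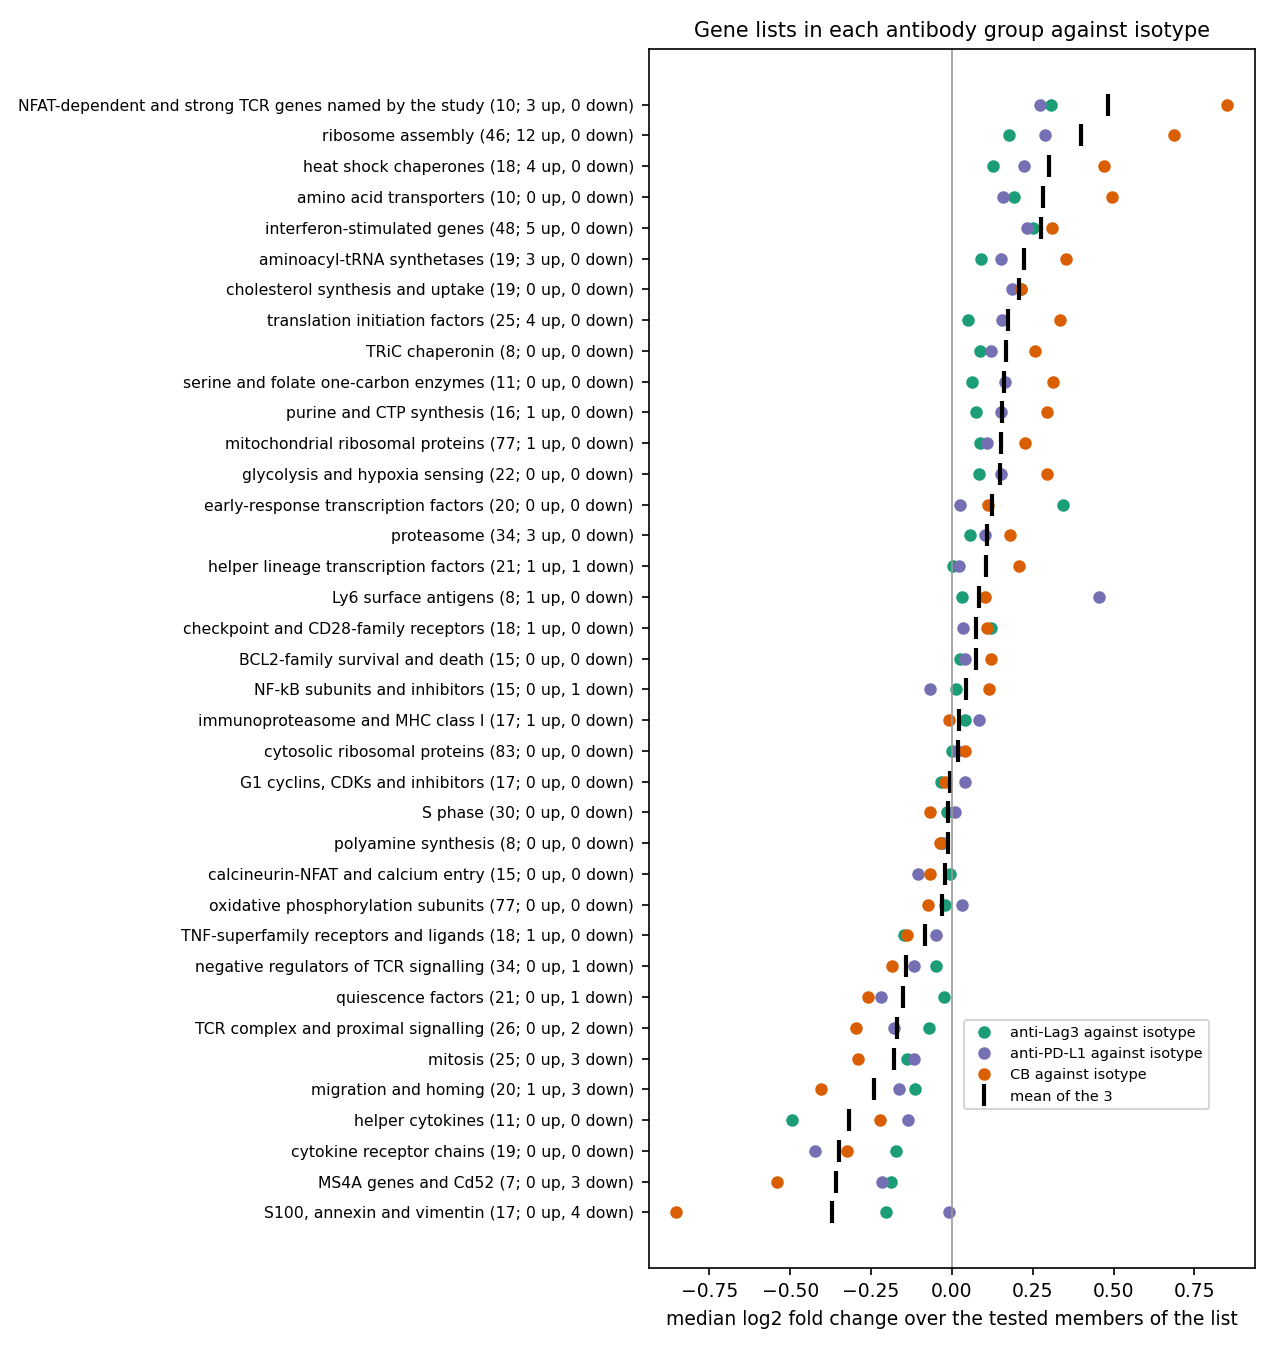
Median log2 fold change against isotype (x axis) over the tested members of each gene list (y axis) for anti-Lag3, anti-PD-L1, CB and the mean of the 3 (black ticks); brackets give members tested and members called higher (up) or lower (down) in the averaged contrast. The CB point stands apart for ribosome assembly (0.69 against 0.18 and 0.29), while the 3 points nearly coincide for interferon-stimulated genes (0.25, 0.23 and 0.31).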

How the data were processed

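Splenic responder CD4+ T cells of 12 mice (3 per group) were profiled with QuantSeq 3′ libraries made from 5 ng of RNA with 18 PCR cycles and no molecular identifiers. The authors trimmed reads with Cutadapt 1.18, aligned them to GRCm38 with STAR 2.6.1a and deposited whole-number counts per gene from FeatureCounts 1.6.4. Their annotation release and strand setting are not given in the sources used here, and their rlog table was not used. Gene symbols and positions were taken from GENCODE M21 (52073 genes matched), and 114 spike-in rows were left out. Genes with at least 30 reads over the 12 libraries were tested with edgeR 4.0.16 (quasi-likelihood, TMM scaling, 1 mean per group over all libraries, Benjamini-Hochberg adjustment, threshold 0.05) in R 4.3.3. DESeq2 1.42.0 was an alternative, and the scripts were tested on simulated data. CPM uses TMM library sizes. Floors of 3 reads and counts cover counting error only, and p-values measure the spread between these mice. Genes were named by size of change (8 higher, 8 lower), smallest p (4 each), smallest spread among antibody means at an absolute log2 fold change of at least 0.5 (4 each), and smallest p of the step to CB (4 each) among called genes that had a symbol, a mean of 30 reads or more and all 9 antibody libraries on one side of isotype, beside antibody targets and sort genes. The members and lists were chosen with earlier results of these data known. Alternatives covered scaling, filters, tools, design, replicate block and each library left out.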

Additional observations from a re-analysis of the deposited data

Results flagged for a closer look

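Among 37 named genes, each examined over the 9 antibody libraries, 3 had a library set apart from the other 8 by more than 0.493 of the whole range, and chance alone marks about 1 in 20 such groups. *Lgals3bp* was lowest in anti-PD-L1 1, at 70.8 CPM, with the nearest library at 86.5 CPM. *Pdcd1* was lowest in the same library, at 15.0 CPM, with the nearest at 22.7 CPM. *Ifi47* was highest in CB 3, at 181 CPM, with the nearest at 151 CPM.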

How the results depend on the processing

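The counts of called genes depended on the processing, and the cause was not tested unless stated. Against 94 higher and 81 lower genes, the antibody contrast called 182 and 168 without a filter on low counts, 214 and 156 with DESeq2, 22 and 4 with DESeq2 against a log2 fold change of 0.2, and 11 and 7 with edgeR's test against 0.2. It called 195 and 161 without the anti-Lag3 group, 0 and 0 without the CB group, and 0 and 0 when the 9 antibody libraries were fitted as 1 group (1525 genes at an unadjusted p under 0.05, 123 called by DESeq2), where differences among antibody groups enter the residual spread. Settings chosen after seeing the data gave 6 and 7 with the erythroid covariate, 0 and 0 in male mice and 0 and 0 in female mice. With 1 library left out, the counts were between 12 and 109 higher and between 16 and 97 lower. All called genes that were fitted kept their direction in these settings, except *Slc25a31* with the erythroid covariate (1.57).

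For CB against the single antibodies, 92 higher and 78 lower genes became 191 and 136 without a filter, 154 and 176 with DESeq2, 156 higher with the sex covariate, and 41 and 40 with the erythroid covariate, with 23 to 97 higher and 24 to 78 lower when 1 library was left out. Anti-PD-L1 against anti-Lag3 called 2 genes without a filter, 10 with DESeq2 and 0 to 1 with 1 library left out. The test of equal antibody means called 264 without a filter, 259 with DESeq2 and 21 to 92 with 1 library left out. Genes with all antibody libraries above isotype numbered 176 to 438 and below it 202 to 562 with 1 library left out, where fewer libraries make separation easier.

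Whether replicate numbers pair the mice is not given in the sources used here. The deviations of 2 of 18 same-number pairs correlated above 0.1, short of the every-pair criterion used for pairing, while 8 of 12 libraries were closest to their own number. Number 1 was male and number 3 female in every group, so that number and sex go together in part. With the replicate block the antibody contrast called 174 higher and 148 lower, the step to CB 171 and 128, and the test of equal antibody means 184.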

Other observations

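Some called genes outside the gene lists are given here as single values. They were picked after their values were seen and were not tested as a group. *Pfn1*, the actin monomer binder profilin, was at 353 ± 10.5 CPM with isotype, 264 ± 34.8 with anti-Lag3, 239 ± 16.4 with anti-PD-L1 and 159 ± 59.3 with CB (log2 fold change -0.71, adjusted p = 0.00517, edgeR), and it kept its call without any 1 library. *Snhg1*, a host gene of small nucleolar RNAs, rose by 0.54 (adjusted p = 0.00394). *Pim2*, a serine kinase of growth and survival, rose by 0.78 (adjusted p = 0.00212), from 50.9 ± 1.94 CPM with isotype to 77.7 ± 6.80, 75.5 ± 11.9 and 114 ± 16.1.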
